A study of Homo sapiens with 12 samples.

Results

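The S100 and annexin genes encode proteins of which most depend on calcium. These genes were taken as every row of the deposited table whose symbol begins with S100 and a letter or with ANXA and a number. Of 34595 genes with a value, 39 rows were found, which are 21 S100 genes, 17 annexin rows that include 3 pseudogenes of ANXA2, and S100PBP. S100PBP is matched by its letters only, since it encodes a nuclear protein that binds S100P and is not of the S100 family, and it was counted apart from the other 38. The genes were measured in KATO-III, SNU-216 and SNU-601, which are established human gastric cancer cell lines grown in RPMI1640 medium with calf serum and given no other treatment. Live cells were stained for CD133, a membrane glycoprotein encoded by PROM1, and sorted into CD133+ cells, the brightest 10%, and CD133- cells, the dimmest 6%. RNA of each of the 6 sorted populations was hybridized on 2 Illumina HT-12 v3 BeadChip arrays, 12 in all, to ask which genes differ between the fractions. Each line is a single line, and whether the 2 arrays of a population come from separate sorts is not stated, so the p-values measure the spread between arrays, which may be technical. The array labels name SNU-216 where the deposited description of the series names another SNU line.

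S100 proteins are small proteins with a pair of EF hands that dimerize, and most of them dock onto other proteins when calcium rises. Annexins bind acidic phospholipids of membranes in a calcium-dependent way and take part in membrane repair, vesicle traffic and the link of membranes to actin. The families meet in complexes, of which the tetramer of S100A10 and ANXA2 at the plasma membrane is the best known, and S100A11 with ANXA1 and S100A6 with ANXA11 are others. In gastric and other epithelial cancers S100P, S100A4 and ANXA10 have long been studied as markers of differentiation, invasion or gastric identity. Most S100 genes lie side by side on the long arm of chromosome 1, where 17 of the 21 are found in the RefSeq annotation, and the annexins are scattered.

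The deposited values are quantile-normalized intensities with a background subtracted, so that a gene without signal scatters around 0. Values under 32.7, called the floor here and equal in size to the 1st percentile of the table, were raised to it before log2 was taken, and a gene was tested where it exceeded the floor on at least 2 arrays. Between 16320 and 16474 genes exceeded the floor on an array. PROM1 in KATO-III had an intensity of 9513 and 8847 in CD133+ and of 4056 and 4493 in CD133- cells. It was 9273 and 8773 against 2232 and 2219 in SNU-216, and 4877 and 4677 against 1315 and 1324 in SNU-601. The sort is thus seen at the RNA level in each line, and CD133- cells still carried PROM1 signal well above the floor. All 6 epithelial markers examined were above the floor in every population. Of 8 leukocyte markers PTPRC, MPO, ELANE, CSF3R and CD3E were below the floor on all arrays, while CD14 reached 1242 in KATO-III. ITGAM and CD79A each exceeded the floor on 9 arrays, with at most 117 and 60.5. Of 8 fibroblast and endothelial markers only COL1A1 and LUM exceeded it on at least 2 arrays, and LUM was at 743 and 783 in CD133- cells of KATO-III against 64.4 and 91.6 in its CD133+ cells. Of 5 proliferation markers, limma called 2 over all lines, TOP2A (log2 change 0.43) and CCNB1 (0.74), both higher in CD133+ cells. In SNU-216 the fractions overlapped for CCNB1, with 987 and 902 in CD133+ against 999 and 857 in CD133- cells. BIRC5 was lower in CD133+ cells there, with 2011 and 1952 against 2440 and 2180. It was 2942 and 2649 against 2406 and 2418 in KATO-III, and 2183 and 2377 against 1345 and 1457 in SNU-601. MKI67 was called in no line, and CDC20 was lower in CD133+ cells of KATO-III (-0.42) and higher in those of SNU-601 (0.68). The part of these in the changes below was not tested. In sorted bulk RNA, fewer cells with a transcript and less of it per cell cannot be told apart.

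The stretch just before the transcription start is shown for 4 members on which the results turn. S100P and ANXA10 had the widest ranges of line means, S100A4 differed between the lines and in opposite directions between the fractions, and S100A10 was called in no comparison. The 250 bases before the RefSeq start site (build GRCh38.p14) are written 5′ to 3′ on the strand of the gene, with capitals for the TATA box motif TATAAA, the GC box core GGGCGG and the box motif CCAAT, each searched on both strands.
S100P (chr4:6693628-6693877, + strand): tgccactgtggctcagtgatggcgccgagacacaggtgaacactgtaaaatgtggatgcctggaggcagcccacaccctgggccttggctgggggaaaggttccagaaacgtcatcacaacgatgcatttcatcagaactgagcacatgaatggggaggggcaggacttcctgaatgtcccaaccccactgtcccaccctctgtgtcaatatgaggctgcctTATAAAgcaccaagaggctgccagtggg
ANXA10 (chr4:168092287-168092536, + strand): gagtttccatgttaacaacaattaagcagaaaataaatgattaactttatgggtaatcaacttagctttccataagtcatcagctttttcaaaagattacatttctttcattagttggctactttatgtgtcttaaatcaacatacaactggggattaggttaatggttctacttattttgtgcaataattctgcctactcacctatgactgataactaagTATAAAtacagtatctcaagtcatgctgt
S100A4 (chr1:153545807-153546056, - strand): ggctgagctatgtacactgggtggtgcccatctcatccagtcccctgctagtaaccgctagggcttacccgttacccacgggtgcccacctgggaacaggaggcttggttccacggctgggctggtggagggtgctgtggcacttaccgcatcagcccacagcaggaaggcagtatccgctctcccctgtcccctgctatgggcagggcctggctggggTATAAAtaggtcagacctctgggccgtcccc
S100A10 (chr1:151993860-151994109, - strand): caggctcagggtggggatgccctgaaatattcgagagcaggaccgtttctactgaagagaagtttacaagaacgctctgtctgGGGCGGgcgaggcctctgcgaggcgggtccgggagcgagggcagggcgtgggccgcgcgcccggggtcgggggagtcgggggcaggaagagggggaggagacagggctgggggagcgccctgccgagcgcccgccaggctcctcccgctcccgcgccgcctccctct

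The windows of S100P, ANXA10 and S100A4 each held a single TATAAA, which began 28, 29 and 31 bases before the start, and no GGGCGG. The window of S100A10 held a GGGCGG, the core of a GC box, 167 bases before the start, and no TATAAA. None of the 4 held CCAAT. Of 35116 RefSeq windows of this length, which include several starts for some genes, 10.7% held TATAAA, 42.6% GGGCGG and 32.0% CCAAT. The dinucleotide CG occurred 4 times in the S100P window, 0 times in that of ANXA10, 7 times in that of S100A4 and 24 times in that of S100A10, where the median window had 11. The 30 members with a window have 41 windows in all, and 14 of these members held TATAAA in at least 1 window. GGGCGG was in a window of 14 as well. These are counts of genes, and the percentages above are of windows, so they cannot be set side by side. The match is of letters only. The 4 genes shown were picked for their results, and whether the motifs go with the differences between populations was not tested.

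Of the 38 S100 and annexin rows, 27 were tested, 13 S100 genes and 14 annexin rows, and 17 exceeded the floor on all 12 arrays. The other 11 were at or below the floor on every array, except for ANXA6, which reached 35.9 on 1 SNU-601 CD133+ array. S100A8 and S100A12 of the calgranulins, which neutrophils and inflamed epithelia make, were among these 11 with S100A7, S100A7A, S100A7L2, S100B, S100G, S100Z, ANXA8 and ANXA8L1. The intensities of the 10 that never exceeded the floor lay between -39.7 and 23.7, and these data give no level for them. S100A1, a muscle and heart member, passed the filter with at most 48.1 on any array. Intensities of different genes come from different probes and were not compared with each other.

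By the median size of the difference, the lines differed more than the fractions did, among all genes as among the members. By limma at an adjusted p of 0.05, 22 of the 27 tested members differed between KATO-III and SNU-216, 11 higher and 11 lower in KATO-III, where 62% of all 20147 tested genes did (30.3% higher and 31.7% lower). Between KATO-III and SNU-601, 3 were higher in KATO-III and 16 lower, 70.4% of the members against 58.6% of all genes, and all genes divided into 28.7% higher and 29.9% lower. Between SNU-216 and SNU-601, 8 were higher in SNU-216 and 12 lower, 74.1% against 56.5%. The median size of the difference was 0.74 on the log2 scale for the members and 0.37 for all genes in this last pair. It was 0.47 and 0.44 between KATO-III and SNU-216, and 0.41 and 0.38 between KATO-III and SNU-601. Between the fractions it was 0.23 and 0.29 in KATO-III, 0.15 and 0.23 in SNU-216, and 0.14 and 0.18 in SNU-601. A comparison of lines draws on more arrays than one of fractions, so their counts of calls cannot be set side by side. S100A10 and S100A1 were called between no lines, and 13 members were called between all 3 pairs. How many of all genes were called between no lines or all 3 pairs was not counted. The 3 comparisons share arrays.

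S100P, a secreted and cytoplasmic S100 protein of many adenocarcinomas that signals through the receptor AGER, was low in SNU-216. KATO-III had an S100P intensity of 12377 and 12489 in CD133+ and of 13594 and 13984 in CD133- cells. It was 13828 and 13978 in CD133+ and 13828 and 13556 in CD133- cells of SNU-601. In SNU-216 it was 148 and 121 in CD133+ and 61.8 and 72.7 in CD133- cells, so that no SNU-216 array came near any array of the other lines. SNU-601 was 146-fold above SNU-216 over both fractions (log2 difference of SNU-216 minus SNU-601 -7.19, standard error 0.0667, adjusted p = 1.12e-12, limma), and KATO-III was 138-fold above SNU-216. The log2 difference of KATO-III minus SNU-601, -0.08, was not called (adjusted p = 0.374).

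ANXA10, an annexin normally made by gastric surface epithelium, was also lowest in SNU-216. It was 5472 and 5013 in CD133+ and 5623 and 5166 in CD133- cells of SNU-601. KATO-III had 1707 and 1888 in CD133+ and 5069 and 4646 in CD133- cells. In SNU-216 the 4 values lay between -10.7 and -4.49, below the floor. SNU-601 was therefore at least 163-fold and KATO-III at least 90.3-fold above SNU-216, with the floor standing for SNU-216 (adjusted p = 2.76e-13 and 6.21e-13, limma). SNU-601 was also 1.80-fold above KATO-III (adjusted p = 7.09e-07, limma). The KATO-III CD133- arrays lay near the lowest SNU-601 array and the KATO-III CD133+ arrays far below it.

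S100A4, a partner of non-muscle myosin linked to motility and metastasis, was likewise lowest in SNU-216. SNU-601 had 15264 and 15280 in CD133+ and 15281 and 14664 in CD133- cells, and KATO-III had 11163 and 12093 against 16386 and 17083. SNU-216 had 4696 and 4426 in CD133+ and 1980 and 1994 in CD133- cells, with all 4 arrays below every array of the other lines. SNU-216 was 4.63-fold below KATO-III and 5.02-fold below SNU-601 (adjusted p = 4.1e-11 and 2.96e-11, limma). The difference between KATO-III and SNU-601 was small, 1.08-fold (adjusted p = 0.0200), and its call was lost without KATO-III CD133+ replicate 1, KATO-III CD133- replicate 1 or SNU-601 CD133- replicate 1 (adjusted p = 0.0547 to 0.0657).

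**Figure D1:**
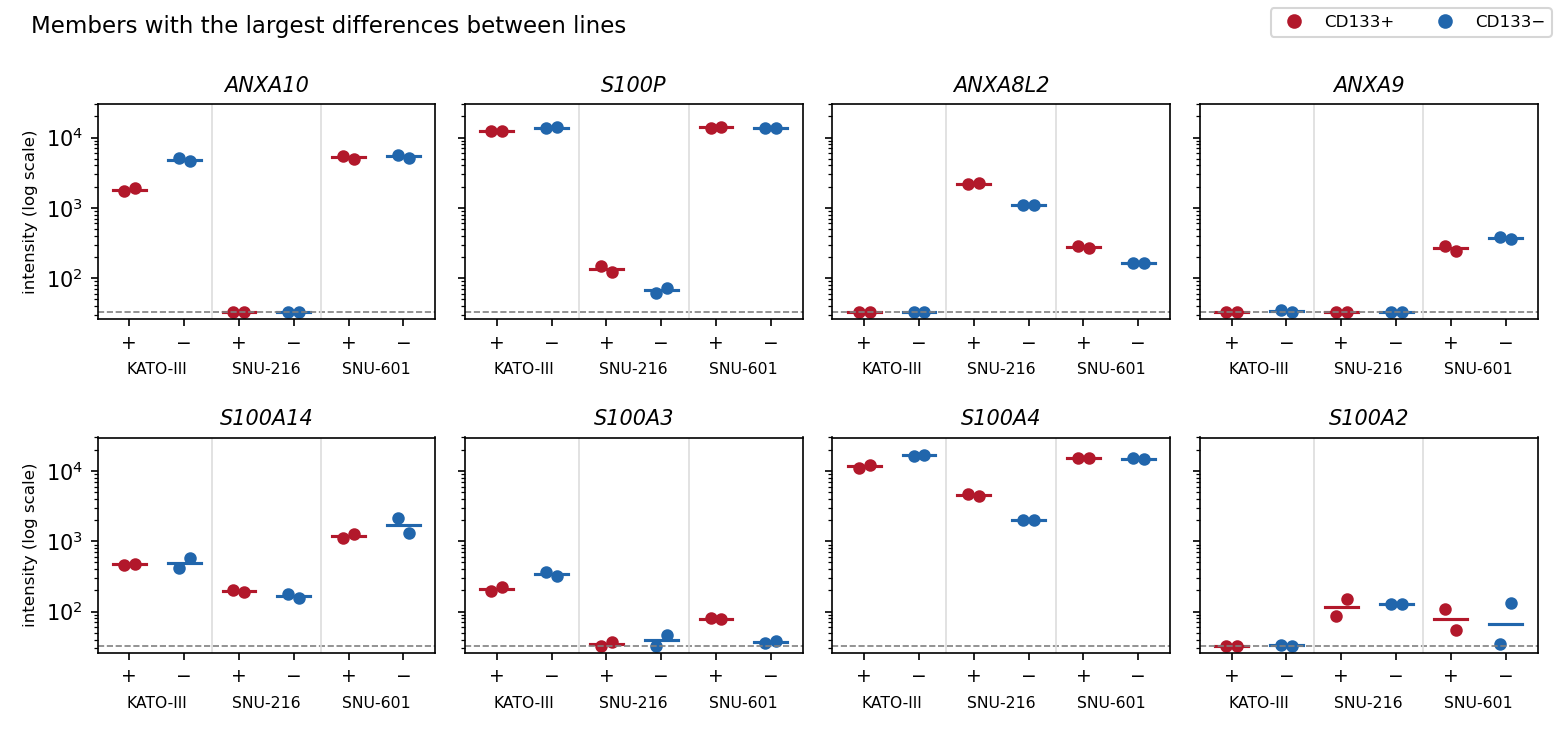
Intensity on a log axis of the 8 members with the widest range of line means among those called between lines, with a point per array, red for CD133+ and blue for CD133- cells, a line at the mean log2 level of the 2 arrays, and values under the floor of 32.7 (dashed) drawn at it. S100P, ANXA10 and S100A4 were lowest in SNU-216, ANXA8L2 highest there, and ANXA9 was well above the floor on the 4 arrays of SNU-601.

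ANXA8L2 was instead highest in SNU-216. It was 2187 and 2245 in CD133+ and 1086 and 1105 in CD133- cells of SNU-216, and 290 and 266 against 166 and 164 in SNU-601. In KATO-III the 4 values lay between -9.22 and 21.2, below the floor, so that SNU-216 was at least 47.7-fold and SNU-601 at least 6.55-fold above KATO-III (adjusted p = 2.39e-12 and 5.81e-10, limma). The symbol ANXA8L2 is now a synonym of ANXA8L1 in RefSeq, while the separate rows ANXA8 and ANXA8L1 were below the floor. These copies are near identical, and which of them gave the signal is uncertain. ANXA9, an annexin with degenerate calcium sites, was between 246 and 379 on the 4 arrays of SNU-601 and at most 35.4 elsewhere, at least 9.62-fold above SNU-216 (adjusted p = 1.1e-09, limma). These bounds move with the floor, and with a floor of 100 the log2 difference was -1.65 for ANXA9 (SNU-216 minus SNU-601) and -1.10 for ANXA8L2 (KATO-III minus SNU-601).

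The S100 genes that neighbor S100A4 on chromosome 1 differed between the lines by other amounts and in part in another order. S100A6, the next but one gene and a growth-associated S100 protein, was between 8767 and 12546 on all arrays, and SNU-216 was 1.21-fold below KATO-III (adjusted p = 0.00335, limma). S100A5, which lies between them, was at most 69.2. S100A3, on the other side, a cysteine-rich member best known from hair cuticle, was highest in KATO-III, with 195 and 226 in CD133+ and 361 and 317 in CD133- cells. It lay between 14.3 and 46.5 in SNU-216, and in SNU-601 it was 79.9 and 77.3 in CD133+ and 36.0 and 38.2 in CD133- cells. Every KATO-III array was above all arrays of the other lines. KATO-III was 7.27-fold above SNU-216 and 4.94-fold above SNU-601 (adjusted p = 4.65e-08 and 3.07e-07, limma). These sizes rest on the floor, since S100A3 in SNU-216 was under it on 2 of 4 arrays, and with a floor of 100 both log2 differences were 1.41 in place of 2.86 and 2.30.

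The neighboring S100A16, S100A14 and S100A13 had their highest mean in SNU-601 and their lowest in SNU-216. S100A4 was also lowest in SNU-216, but its order of KATO-III and SNU-601 depended on the fraction. Its mean was 11628 in KATO-III against 15272 in SNU-601 for CD133+ cells, and 16734 against 14972 for CD133- cells. S100A14, an epithelial S100 protein, was 1124 and 1276 in CD133+ and 2180 and 1299 in CD133- cells of SNU-601, between 420 and 573 in KATO-III and between 154 and 203 in SNU-216. SNU-601 was 7.88-fold above SNU-216 and 2.96-fold above KATO-III (adjusted p = 1.66e-07 and 2.13e-05, limma). S100A16, a broadly expressed relative, was 3.14-fold higher in SNU-601 than in SNU-216, and S100A13, which helps release growth factors that lack a signal peptide, 2.55-fold (adjusted p = 1.49e-08 and 6.28e-09). S100A2, a p53-regulated S100 protein of epithelia, was low throughout, with at most 33.5 in KATO-III, 86.2 to 152 in SNU-216 and 34.2 to 132 in SNU-601. It was higher in SNU-216 than in KATO-III, where 1 array was above the floor (log2 difference of KATO-III minus SNU-216 -1.88, adjusted p = 0.00264, limma). The size rests on the floor, and was -0.33 with a floor of 100 and -2.20 with a floor of 16, called in both. Its difference of KATO-III minus SNU-601, -1.14 on the log2 scale (adjusted p = 0.0358), was lost without any 1 array except SNU-601 CD133+ replicate 2 and SNU-601 CD133- replicate 1 (adjusted p = 0.0509 to 0.132), and it was -0.65 without SNU-601 CD133- replicate 2.

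Between the fractions, 18 of the 27 tested members were called in at least 1 line, none in all 3, and 9 in no line. How many of all genes met each of these was not counted, and the shares below are for 1 line at a time. In KATO-III 13 members were called by limma, 5 higher and 8 lower in CD133+ cells, which is 48.1% where 39.3% of all genes were called (18.7% higher and 20.6% lower). In SNU-216, 7 were higher and 1 lower, 29.6% against 28.6%, with 14.6% of all genes higher and 14% lower. In SNU-601, 2 were higher and 2 lower, 14.8% against 16.4%, with 8.59% of all genes higher and 7.78% lower. The share of members called thus lay near that of all genes in SNU-216 and SNU-601. The median log2 change of the members was -0.06 in KATO-III, 0.02 in SNU-216 and -0.02 in SNU-601, where the median of all genes was 0 in each.

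**Figure D2:**
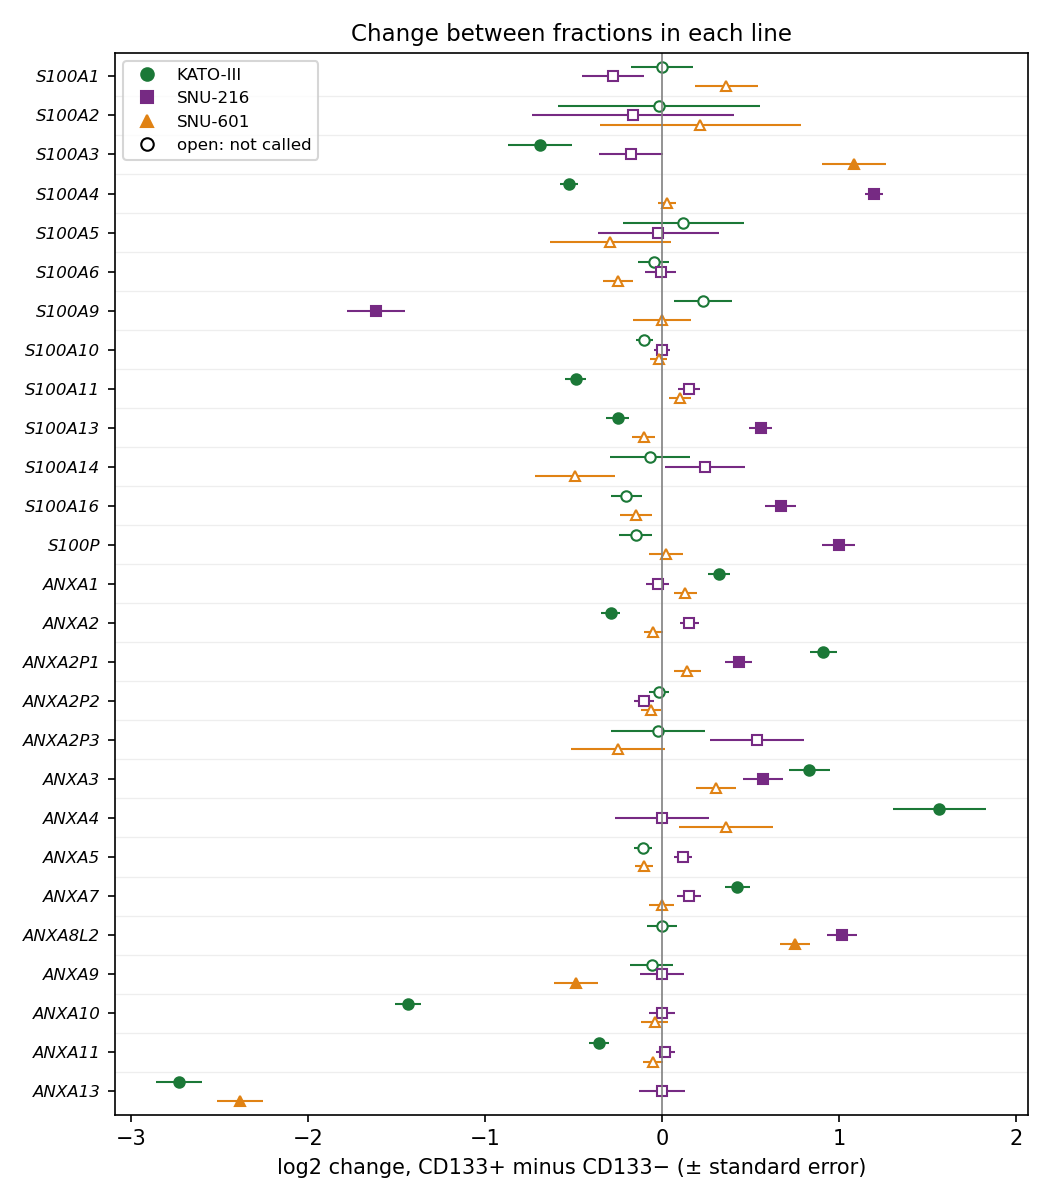
Log2 change of CD133+ minus CD133- cells in each line for the 27 tested members, with bars of 1 standard error from limma over the 12 arrays, and filled symbols where the adjusted p was under 0.05. Most points lie within 1 of 0, ANXA13 lies at -2.73 in KATO-III and -2.38 in SNU-601, and S100A4 and S100A13 lie on opposite sides of 0 in KATO-III and SNU-216.

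In KATO-III the summed intensity of the 8 fibroblast and endothelial markers was 117 and 196 in CD133+ against 791 and 832 in CD133- cells, which was mostly LUM. COL1A1, the other tested gene of that list, went the other way, with 51.4 and 67.1 against 20.6 and 27.2, and both were called. CD14 was also lower in CD133+ cells. In KATO-III the 4 called S100 genes, S100A3, S100A4, S100A11 and S100A13, were all lower in CD133+ cells. S100A4 fell by 0.53 on the log2 scale (standard error 0.0511, adjusted p = 6.39e-05, limma), and the 2 arrays of each fraction did not overlap. S100A11, a keratinocyte and epithelial S100 protein, was 5158 and 5625 in CD133+ and 7376 and 7744 in CD133- cells, a change of -0.49 (adjusted p = 0.000266). The call of S100A3 (-0.69, adjusted p = 0.0151) was lost without KATO-III CD133+ replicate 1 or CD133- replicate 1 (adjusted p = 0.0893 and 0.0861), with a floor of 16 (0.183) and with no filter on low genes (0.0503). That of S100A13 (-0.25, adjusted p = 0.0136) was lost without KATO-III CD133+ replicate 2 or CD133- replicate 1 (adjusted p = 0.0654 and 0.0647). The annexins were divided, with ANXA1, ANXA3, ANXA4, ANXA7 and the pseudogene row ANXA2P1 higher and ANXA2, ANXA10, ANXA11 and ANXA13 lower in CD133+ cells.

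The largest change in KATO-III was that of ANXA13, an annexin of intestinal and kidney epithelium. It was 3.92 and -11.9 in CD133+ cells, below the floor, and 210 and 223 in CD133- cells, which was at least 6.62-fold higher (log2 change of CD133+ minus CD133- cells -2.73, adjusted p = 1.48e-06, limma). ANXA10 fell by 1.43 in CD133+ cells (standard error 0.0753, adjusted p = 2.27e-06), from a mean of 4858 ± 299 (SD, n = 2 arrays) in CD133- to 1798 ± 128 in CD133+ cells. ANXA4, an annexin of apical epithelial membranes, was 113 and 143 in CD133+ and 34.4 and 53.9 in CD133- cells, a change of 1.57 (standard error 0.264, adjusted p = 0.00147). Near the floor the sizes move with it. With a floor of 100 the changes were -1.11 for ANXA13 and 0.35 for ANXA4, still called, and with a floor of 16 that of ANXA13 was -3.76.

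In SNU-216 the 7 members that rose were S100A4, S100A13, S100A16, S100P, ANXA3, ANXA8L2 and ANXA2P1. S100A4 changed by 1.20 (standard error 0.0511, adjusted p = 2.06e-06, limma), a 2.29-fold higher level in CD133+ cells, opposite to KATO-III. S100A16 was 2610 and 2825 in CD133+ and 1718 and 1697 in CD133- cells, a change of 0.67, and S100A13 was 563 and 537 against 353 and 396, a change of 0.56 (adjusted p = 0.000656 and 0.000325). S100P changed by 1.00 at the low level it had in this line, and by 0.42 with a floor of 100 (adjusted p = 0.00204). ANXA8L2 changed by 1.02 (adjusted p = 5.09e-05), with every CD133+ array above both CD133- arrays.

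The only member that fell in SNU-216 was S100A9, a calgranulin that pairs with S100A8 as calprotectin. S100A9 was 48.4 and 49.0 in CD133+ and 135 and 165 in CD133- cells, a log2 change of -1.62 (standard error 0.164, adjusted p = 0.000155, limma), and -0.58 with a floor of 100. On the other 8 arrays it exceeded the floor once, at 45.0 in KATO-III CD133+ cells. Its partner S100A8 was between -18.5 and 6.22 in SNU-216 and at no array above the floor in any line, so S100A9 was seen there without S100A8 signal. The neutrophil genes MPO, ELANE and CSF3R were below the floor on all arrays. Of the same list of 8 leukocyte markers, ITGAM was above it in SNU-216, at 99.6 and 80.9 in CD133+ and 78.7 and 117 in CD133- cells. CD79A lay between 44.6 and 60.5 in that line. The summed intensity of the 8 leukocyte markers in SNU-216 was 151 to 187 in CD133+ and 181 to 198 in CD133- cells.

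In SNU-601 the called members were ANXA13 and ANXA9, lower in CD133+ cells, and S100A3 and ANXA8L2, higher. ANXA13 was 38.3 and 46.5 in CD133+ and 213 and 227 in CD133- cells, 5.22-fold lower in CD133+ cells (log2 change -2.38, standard error 0.129, adjusted p = 5.46e-05, limma). Its CD133+ values lie just above the floor, and the log2 change was -1.14 with a floor of 100, still called. ANXA8L2 changed by 0.75 (adjusted p = 0.000789). S100A3 changed by 1.08 (adjusted p = 0.00464), but at a floor of 100 both fractions are at the floor and at a floor of 16 it was not called (adjusted p = 0.0881). ANXA9 changed by -0.49 (adjusted p = 0.0274), a call lost without SNU-601 CD133+ replicate 2 (adjusted p = 0.108), SNU-601 CD133- replicate 1 (0.0871) or replicate 2 (0.0639), and with a floor of 16 (adjusted p = 0.345).

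**Figure D3:**
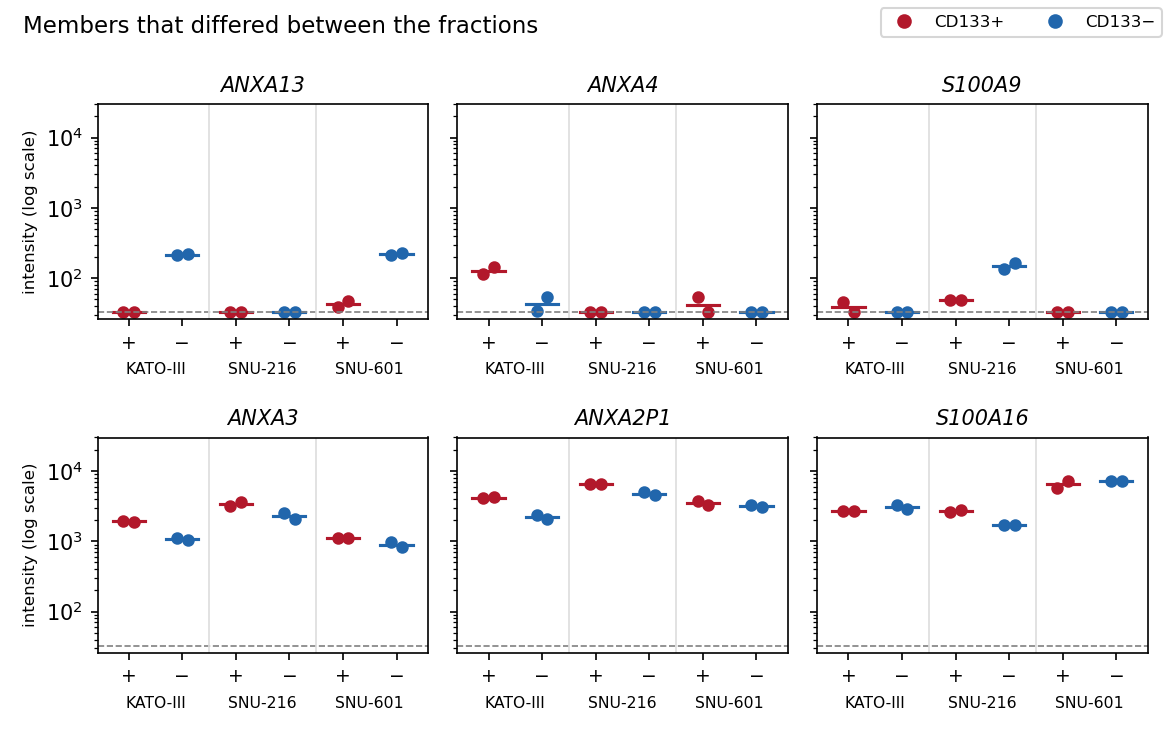
Intensity on a log axis of 6 members that differed between the fractions in at least 1 line, with a point per array (red CD133+, blue CD133-), a line at the mean log2 level and the floor of 32.7 dashed. ANXA13 was above the floor in CD133- cells of KATO-III and SNU-601 at about the same intensity, S100A9 stood out in SNU-216 CD133- cells, and ANXA3 and ANXA2P1 were higher on the CD133+ than on the CD133- arrays of each line, a difference not called in SNU-601.

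With the line as a block, limma called 4 members over the 3 lines, ANXA3, ANXA2P1 and ANXA8L2 higher and ANXA13 lower in CD133+ cells. These are 11.1% and 3.7% of the members, where 2.62% of all genes were called higher and 2.11% lower, 4.73% in all. None of the 13 S100 genes was called, and none had an unadjusted p under 0.05, where 24.5% of all genes had. ANXA3, an annexin of neutrophils and epithelial cancers, had in KATO-III 1936 and 1912 in CD133+ and 1126 and 1037 in CD133- cells. It was 3192 and 3595 against 2540 and 2046 in SNU-216, and 1117 and 1106 against 981 and 826 in SNU-601. Every CD133+ array thus lay above both CD133- arrays of its line, which held for 2 of the 27 members, ANXA3 and ANXA2P1. How many of all genes met this was not counted. ANXA3 was called in KATO-III (log2 change 0.83, adjusted p = 0.000432) and SNU-216 (0.57, adjusted p = 0.00524) but not in SNU-601 (0.30, adjusted p = 0.11). Over the lines the log2 change of ANXA3 was 0.57 (standard error 0.0961, adjusted p = 0.0142), and it was called without any 1 of the arrays. ANXA2P1 changed by 0.50 (adjusted p = 0.0309) and ANXA13 by -1.70 (adjusted p = 0.0312), each called in 4 of the 12 fits without 1 array and otherwise at an adjusted p of 0.0512 to 0.0813 and 0.0510 to 0.0857. The calls of ANXA2P1 were lost without any 1 array of KATO-III or SNU-216, and those of ANXA13 without any 1 array of KATO-III or SNU-601. ANXA8L2 changed by 0.59 (adjusted p = 0.0493), a call lost without any 1 array (adjusted p = 0.0638 to 0.102). With a floor of 100 the change of ANXA13 was -0.75, still called. In SNU-216 ANXA13, and in KATO-III ANXA8L2, was below the floor in both fractions. Without 1 array the number of members called was 1 for each KATO-III array and 2 for each array of the other lines. On the means of the 2 arrays of a population limma called 0 members and 0 of all genes. PROM1, the marker of the sort, was not called there either (log2 change 1.66, adjusted p = 0.796, limma). The lack of calls in that fit therefore says little about the members. An unadjusted p under 0.05 was found there for 3 of the 27 members and 4.92% of all genes. A random block for the population gave 0 members and 1 gene called, which was PROM1 (adjusted p = 0.00123, limma). There 5 members and 11.4% of all genes had an unadjusted p under 0.05.

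For 17 of the 27 tested members (63%) the CD133+ minus CD133- change was not the same in the 3 lines, by a moderated F-test in limma, where 44.4% of all genes were called. This test called 7 of the 13 S100 genes and 10 of the 14 annexin rows. For S100A4 the changes were -0.53 in KATO-III, 1.20 in SNU-216 and 0.03 in SNU-601 (adjusted p = 3.65e-06). S100A13 had -0.25, 0.56 and -0.10 (adjusted p = 0.000314), and S100A16 had -0.20, 0.67 and -0.15 (adjusted p = 0.000899). Of the 7 members called in a pair of lines, 4 moved the same way in both, ANXA3 and ANXA2P1 up in KATO-III and SNU-216, ANXA8L2 up in SNU-216 and SNU-601, and ANXA13 down in KATO-III and SNU-601. The other 3, S100A3, S100A4 and S100A13, moved in opposite directions. The calls of S100A3 in both lines and of S100A13 in KATO-III were lost under some alternatives, as given above, and those of S100A4 under none. How many of all genes were called in a pair of lines was not counted.

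Of the partners that form complexes, S100A10 was not called between any populations, while ANXA2, S100A11, ANXA1 and ANXA11 changed in KATO-III, not all in the same direction. S100A10, the light chain that holds ANXA2 at the membrane, was called in none of the 8 tests. KATO-III had 13586 and 13250 in CD133+ and 14214 and 14539 in CD133- cells. It was 13656 and 13989 against 14203 and 13437 in SNU-216, and 14020 and 14788 against 14864 and 14337 in SNU-601. The fractions overlapped in SNU-216 and SNU-601 and stood slightly apart in KATO-III, and its log2 changes between the fractions were -0.10, 0.00 and -0.02. ANXA2, which anchors actin and plasminogen binding to the membrane, was 9222 and 9358 in CD133+ and 11351 and 11360 in CD133- cells of KATO-III, a change of -0.29 (adjusted p = 0.00255, limma). It was 14384 and 15095 against 12816 and 13668 in SNU-216, a difference of 0.15 that was not called (adjusted p = 0.0625). In SNU-601 the fractions overlapped, with 12745 and 12643 against 12534 and 13764.

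S100A11 fell in CD133+ cells of KATO-III, while its partner ANXA1, an anti-inflammatory annexin that signals through formyl peptide receptors, rose there. ANXA1 was 11835 and 12040 in CD133+ and 9380 and 9740 in CD133- cells, a change of 0.32 (standard error 0.0635, adjusted p = 0.00362, limma). In SNU-216 its change was -0.02 and in SNU-601 0.13, neither called. ANXA11, which joins vesicles of the secretory pathway, was 1267 and 1197 against 1535 and 1625 in KATO-III, a change of -0.36 (adjusted p = 0.000976). Its partner S100A6 changed by -0.05 there and by -0.25 in SNU-601, neither called (adjusted p = 0.763 and 0.0892). ANXA5 and ANXA7, which bind phosphatidylserine and take part in membrane fusion, lay between 5256 and 7867 and between 1841 and 3108. ANXA7 rose by 0.43 in CD133+ cells of KATO-III (adjusted p = 0.00116), and ANXA5 was called in no line.

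**Figure D4:**
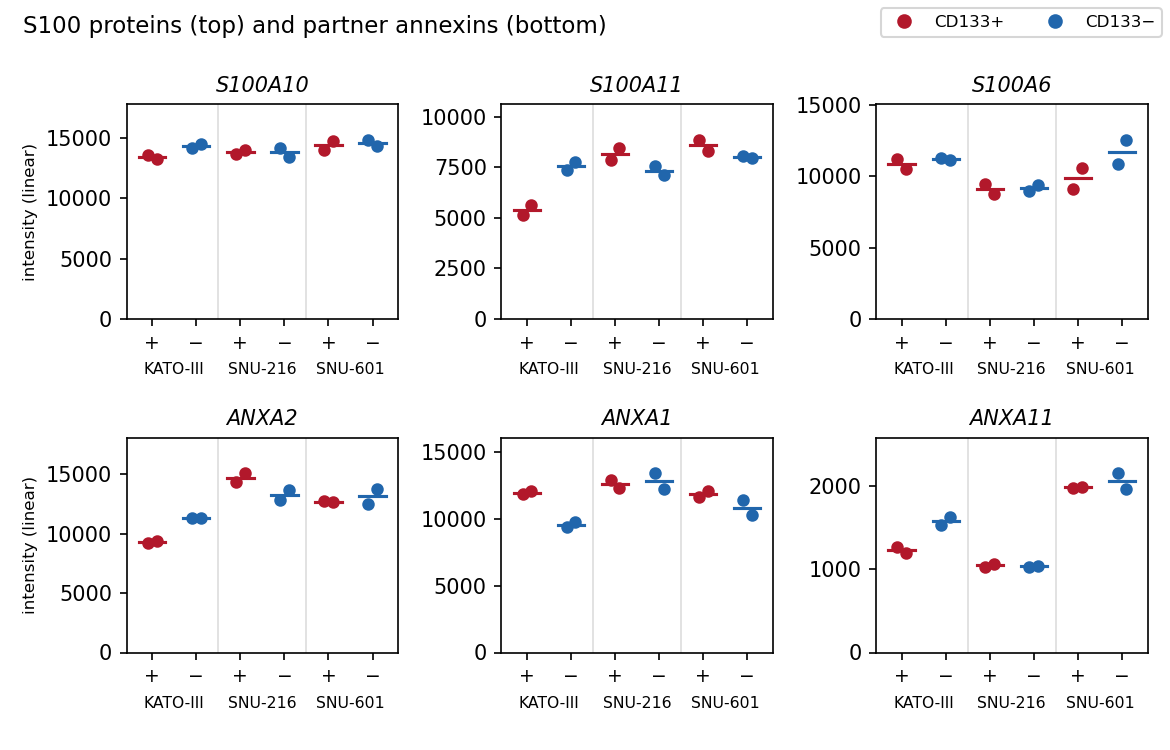
Intensity on a linear axis from 0, scaled for each gene, of S100A10, S100A11 and S100A6 above their partners ANXA2, ANXA1 and ANXA11, with a point per array (red CD133+, blue CD133-) and a line at the mean of the 2 arrays. S100A10 stayed between 13250 and 14864, and in KATO-III CD133+ cells S100A11, ANXA2 and ANXA11 were lower and ANXA1 higher than in CD133- cells.

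The pseudogene rows of ANXA2 had other changes than their parent. ANXA2P1 was 4091 and 4222 in CD133+ and 2351 and 2075 in CD133- cells of KATO-III, a change of 0.91 (adjusted p = 2.7e-05, limma), where ANXA2 changed by -0.29. In SNU-216 it was 6481 and 6441 against 4963 and 4611, a change of 0.43 (adjusted p = 0.00276). In SNU-601 it was 3757 and 3336 against 3305 and 3111, a difference of 0.14 that was not called (adjusted p = 0.269). ANXA2P2 was between 11216 and 13332 on all arrays and called in no line, and ANXA2P3, between 98.4 and 560, was called in none either. Their sequence is close to that of ANXA2, and which transcript bound to each probe is uncertain. S100PBP was between 392 and 542 and was called between the fractions in no line.

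Of 26 genes for known partners and receptors of the families, 18 were tested. The receptors AGER and TLR4, through which extracellular S100 proteins signal, each exceeded the floor on 1 array, while BSG, a receptor of S100A9, lay between 1792 and 6086 on all 12. Of the formyl peptide receptors, through which ANXA1 signals, FPR1 exceeded the floor on 11 arrays with at most 103, and FPR2 and FPR3 on 0. Of the 18, CD133+ cells of KATO-III had 6 at a higher and 6 at a lower level, those of SNU-216 had 4 and 4, and those of SNU-601 had 3 and 3, where 39.3%, 28.6% and 16.4% of all genes were called in either direction. Over all lines limma called only MYH9, the heavy chain of non-muscle myosin bound by S100A4. KATO-III had 9000 and 9076 in CD133+ and 12568 and 12593 in CD133- cells, SNU-216 had 14045 and 13737 against 14521 and 15086, and SNU-601 had 9807 and 9457 against 11449 and 11038. In each line both CD133+ arrays lay below both CD133- arrays, with a log2 change of -0.26 (adjusted p = 0.0318, limma). AHNAK, a giant scaffold held by the S100A10 and ANXA2 complex, was chosen after its values were seen. It changed by -0.87 in KATO-III, 0.64 in SNU-216 and -0.26 in SNU-601 (adjusted p = 1.07e-05, 0.00011 and 0.0188, limma), and its change differed between the lines (adjusted p = 1.37e-05).

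Of 13 genes that lie with the S100 genes on chromosome 1 and belong to the cornified envelope or carry a fused S100 domain, 5 were tested. In CD133+ cells 2 were lower in KATO-III, 1 in SNU-216 and 3 in SNU-601, and 0 were higher in any line. Of all genes 20.6%, 14% and 7.78% were called lower and 18.7%, 14.6% and 8.59% higher. SPRR1A, a small proline-rich envelope protein, was the 1 gene of the list called over all lines, by -0.74 on the log2 scale (standard error 0.0945, adjusted p = 0.00633, limma). KATO-III had 480 and 454 in CD133+ and 941 and 803 in CD133- cells, and the values were 437 and 551 against 731 and 636 in SNU-216, and 5737 and 6407 against 11200 and 10526 in SNU-601. The CD133+ arrays lay below the CD133- arrays in each line. On the means of the 2 arrays, no gene of the whole table was called, SPRR1A and MYH9 included.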

How the data were processed

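RNA of sorted CD133 fractions of 3 gastric cancer lines was hybridized by the authors to Illumina HT-12 v3 BeadChips, and BeadStudio is named in the submitters' processing notes. The table the authors deposited holds intensities that are linear and quantile-normalized, and each row is a gene symbol. A background had been subtracted, since 32.1% of values are at or below 0, and neither its estimation nor the way probes were merged into genes is given in the sources used here. Of 34688 rows, 93 are empty. No detection p-values were used here, so 32.7, the absolute 1st percentile over the table, stood for the limit of detection, and lower values were set to it before log2 was taken. The values proved linear rather than log2, so this floor was chosen after they were seen. The 20147 genes above it on at least 2 arrays were tested.

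Each fraction was compared within its line, and the lines were compared over both fractions, in limma 3.58.1 (R 4.3.3) with 6 population means, a mean-variance trend and 6 residual degrees of freedom. The interaction was tested by the moderated F-test, and the comparison over all lines had line as a block and 8 residual degrees of freedom. Benjamini-Hochberg adjustment covered all 20147 genes, with a threshold of 0.05. The precision is limited by the 2 arrays per population (median SD of 0.13 on the log2 scale). The fit was tested on simulated data. Alternatives were floors of 16 and 100, an offset of 100, other normalizations and filters, no trend, a replicate block, averaged arrays, a random block and each array left out.

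The members and lists were chosen with earlier results of these data known. Named, with array values or a range of them, were members called over all lines, members called within a line with a log2 change of at least 1, the 8 with the widest range of line means, the 4 with the highest mean intensity, and the partner pairs. S100A13 and S100A16 in SNU-216 were added after their values were seen. Promoter sequences and gene names came from RefSeq (GRCh38.p14), where 38 of the 39 symbols matched. Plots were drawn with matplotlib 3.10.9 in Python 3.11.15.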

Additional observations from a re-analysis of the deposited data

Results flagged for a closer look

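For 17 members the change between CD133+ and CD133- cells differed between the lines by limma's test of the interaction. The gap between the largest and the smallest log2 change of the 3 lines was widest for ANXA13 (2.73), followed by S100A9 (1.85), S100A3 (1.77), S100A4 (1.72), ANXA4 (1.57), ANXA10 (1.43), S100P (1.15) and ANXA8L2 (1.02). In SNU-216 ANXA13, ANXA10 and ANXA4 were below the floor in both fractions, as were ANXA8L2 in KATO-III and S100A9 in SNU-601, so that a change of 0 stands for these lines. It was 0.871 for S100A16, 0.807 for S100A13, 0.769 for ANXA2P1, 0.643 for S100A11, 0.444 for ANXA2, 0.428 for ANXA7, 0.378 for ANXA11, 0.345 for ANXA1 and 0.226 for ANXA5. The call of ANXA5 was lost in 9 and that of ANXA1 in 7 of the 12 fits without 1 array. That of ANXA4 was lost without KATO-III CD133+ replicate 2 (adjusted p = 0.0871) or CD133- replicate 1 (0.0665), with a floor of 16 (0.235) or 100 (0.0554) and with no filter (0.0658). That of ANXA7 was lost without the same arrays (adjusted p = 0.0708 and 0.0656) and with no filter (0.0508). With a floor of 100 the gap was 1.14 for ANXA13, 0.58 for S100A9, 0.69 for S100A3, 0.35 for ANXA4 and 0.57 for S100P.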

How the results depend on the processing

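Of 107 calls of members, 88 were kept under every alternative run in which the member was tested. The 17 calls of the interaction test have no direction, and 0 of the others changed direction. The 12 arrays were left out in turn in a fit where the remaining array of that population is assumed to vary like the others. Over all lines the 4 members called became 1 or 2 without any 1 array, 2 with the replicate block, 2 among genes above the floor on all 12 arrays, 1 with no filter, and 0 with arrays averaged or the population as a random block. In SNU-601, 4 became 2 with a floor of 16 and 2 among genes above the floor on all 12 arrays. Between KATO-III and SNU-601, 19 became 12 among genes above the floor on all arrays, where fewer members were tested. Of all genes, 953 were called over all lines, 471 with the replicate block, 425 with no filter and 217 to 532 without 1 array of KATO-III or SNU-216. In SNU-601, 3298 genes became 2176 or 2195 without CD133+ replicate 1 or CD133- replicate 2. The replicate block left each other count of members within 1 of its value. The differences of replicate 1 minus replicate 2 correlated between -0.0116 and 0.0276 over 15 pairs of populations, so no broad shift went with the replicate number. This cannot show whether same-numbered arrays came from a shared sort or run. Genes near the floor limit what can be read, since their change depends on the floor chosen.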
